A study of Mus musculus with 6 samples.

Results

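The histone genes described here are the 102 rows, of 34144 in the gene table, whose symbols name a core histone, a linker histone or a histone variant, leaving out H1f6, H1f7 and H1f9. The rule for membership uses the symbol alone and no measured value, though it was set with earlier results of these data known. Of these, 58 carry a number after the letter c (H2ac, H2bc, H3c, H4c), the naming of the replication-dependent cluster genes, and the other 44 are called variants. The cluster genes comprise 17 for H2A, 17 for H2B, 12 for H3 and 12 for H4. The variants comprise 27 of H2A, 4 of H2B, 5 of H3 and H4, and 8 linker histones, of which H1f1 to H1f5 (5 genes) lie among the cluster genes although their symbols carry no c. By RefSeq, 47 cluster genes lie on chromosome 13 and 10 on chromosome 3.

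RNA came from the testis of 6 C57Bl/6J mice aged 3 months, 3 wild type and 3 of the genotype Nsun7-/-, and each library is a separate mouse by its label. The labels do not describe the Nsun7 allele, and no further allele or treatment is named for either group. Testes were decapsulated before RNA extraction, and ribosomal and globin RNA was depleted from total RNA, and no poly(A) selection is named. The series asks how testis RNA differs without Nsun7, which its title describes as a protein that binds RNA and destabilizes transcripts of elongated spermatids.

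Histones H2A, H2B, H3 and H4 wrap DNA into nucleosomes, and linker histone H1 binds where DNA enters and leaves. Most cluster histone mRNAs are made during DNA replication and end in a conserved stem-loop in place of a poly(A) tail, whereas variant genes such as H3f3a, H3f3b and H2az1 are transcribed outside S phase and polyadenylated. In the testis, histones made in spermatogonia and spermatocytes are partly exchanged for germ cell forms, among them the products of H2ac1 and H2bc1 (TH2A and TH2B), H3f4 (H3t) and the H2al and H2ab genes, before protamines replace most of them in spermatids.

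The stem-loop is the sequence that sets most cluster mRNAs apart, and it is shown here because rRNA-depleted libraries keep the mRNAs that end in it. It was read from GENCODE M21 transcripts (GRCm38, an older build than the mm39 of the deposited files). 125 of 127 histone transcripts have the same length in both. The stem-loop is in capitals below, 5′ to 3′ on the sense strand, with up to 5 bases on each side.
H2ac18: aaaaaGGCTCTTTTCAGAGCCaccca
H2bc14: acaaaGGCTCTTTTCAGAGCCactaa
H3c1: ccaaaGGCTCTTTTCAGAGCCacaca
H3c7: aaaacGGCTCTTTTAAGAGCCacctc
H4c8: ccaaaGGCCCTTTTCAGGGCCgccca
H4c18: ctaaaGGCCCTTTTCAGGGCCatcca
H4c17: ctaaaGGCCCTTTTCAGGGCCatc
H4c9: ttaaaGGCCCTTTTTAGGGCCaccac
H2ax: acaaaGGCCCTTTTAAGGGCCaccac
The histone stem-loop consensus was found in 46 of the 100 members with a transcript model, and in 109 of all 141767 GENCODE transcripts (0.0769%). The 46 are genes, whereas the 109 are transcripts and include those of the members. The form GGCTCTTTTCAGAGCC was in 26 genes, all of H2A, H2B, H3 or the linker histones. The form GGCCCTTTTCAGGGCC was in 7 genes, all of H4, including H4f16, an H4 gene on chromosome 6. Of the 54 models without it, 22 hold coding sequence with no annotated UTR, among them those of H2ac1 (390 bases) and H2bc1 (384 bases), so its absence there says nothing about the mRNA. H2ax, which supplies the H2A.X phosphorylated at DNA breaks and on the sex chromosomes of spermatocytes, holds a stem-loop 822 bases before the end of its model. A stem-loop far from the end was not particular to H2ax. Of the 46 members with a stem-loop, 22 have a model that ends within 60 bases of it. The models of H4c9 and H3c7 run on for 330 and 365 bases.

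Library totals ran from 23480448 to 28558865 estimated counts. Nsun7 itself was at 36.6, 35.7 and 37.2 CPM (counts scaled to library size, here by TMM) in wild type and 18.03, 17.81 and 25.2 in Nsun7-/-, a log2 fold change of -0.84 ± 0.15 (SE) with an adjusted p of 0.0160 in edgeR's quasi-likelihood test with Benjamini-Hochberg adjustment. The tubule markers listed for spermatogonia (12 of 12), leptotene and zygotene cells (12 of 12), pachytene cells (12 of 12), round spermatids (10 of 10), elongating spermatids (12 of 12) and Sertoli cells (12 of 12) all passed the low-count filter, as the tissue label implies. TPM (transcript abundance corrected for length) is shared with the noncoding RNA Rmrp, which held 33.3% of all TPM in wild-type mouse 1 and 11.4% in Nsun7-/- mouse 3. The median gene was 0.24 higher in Nsun7-/- on the log2(TPM + 1) scale, 0.10 higher with TPM rescaled without Rmrp, and 0.01 higher on the count scale. TPM is used below for levels between genes and CPM for differences between mice.

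By TPM, histone mRNA was dominated by H2bc1, the gene for the testis H2B. H2bc1 stood at 31166, 31425 and 29207 TPM in wild-type mice 1 to 3 and at 28240.3, 29873 and 25000.3 TPM in Nsun7-/- mice 1 to 3. It was the most abundant histone gene, and the groups overlapped, Nsun7-/- mouse 3 being lowest. H3f4, which encodes the testis H3, came next at 6666, 5936 and 5550 TPM in wild type against 6117, 6908 and 5186 TPM in Nsun7-/-. H4c8, an H4 cluster gene, ranked next by its mean, at 5844, 4992 and 4477 TPM against 4915, 4850 and 3949 TPM; its range overlapped that of H3f4. H2ac18, H1f1, H2ax, H4c3, H2ac1, H4c12, H4c18, H4c17, H2ac24 and H2bc14 complete the 13 genes with a mean of at least 1000 TPM. Within these 13 genes, from H3f4 to H2bc14 the range of each over the libraries overlapped that of the next. Only H2bc1 stood clear of the next gene among the 13. The overlap of H4c17 with H2ac24 rests on the 0 TPM of H4c17 in wild-type mouse 3. A further 42 genes had a mean between 100 and 1000 TPM, 39 between 1 and 100, and 8 were under 1.

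**Figure D1:**
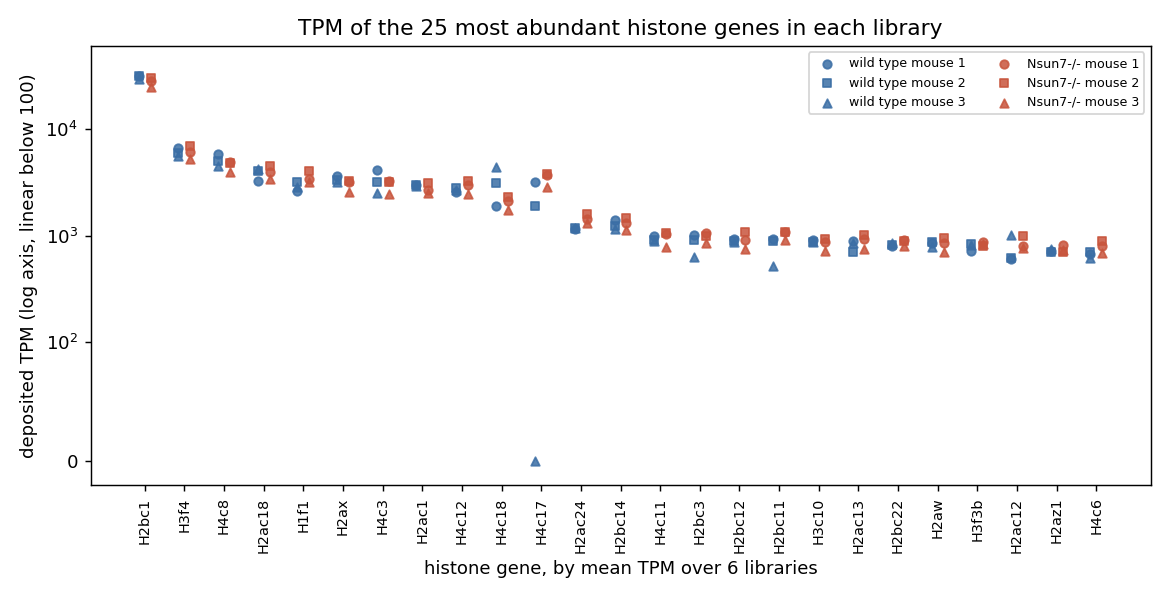
Deposited TPM (log axis, linear below 100) of the 25 histone genes with the highest mean, 1 point for each of 6 libraries, wild type in blue and Nsun7-/- in red. H2bc1 lies between 25000.3 and 31425 TPM, above every other gene, and H4c17 is at 0 in wild-type mouse 3.

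Summed over a class, which removes the division of reads among its own members but not with copies outside it (H2bc18 shares all its 31-base words with Gm20628), the H2B cluster held 40.3% of histone TPM (range 38.6 to 41.9 over the 6 libraries). The H4 cluster held 21.8%, the H2A cluster 14.1% and the H3 cluster 3.64%, while the 5 genes of the H3 and H4 variants held 8.50%, chiefly through H3f4. H2ac1, H2bc1 and H3f4 together held 43.5% (range 41.4 to 45.2). These shares depend on the length of each transcript model, and the models of H2ac1 and H2bc1 hold coding sequence only. By CPM, which is not corrected for length, H2ac1, H2bc1 and H3f4 held 30.5% and the H2B cluster 24.5%. The H2A variants held 17.3% of histone CPM against 5.99% of histone TPM. All 102 genes summed to 88153 ± 3991 TPM over the wild-type mice and 87059 ± 9329 TPM over the Nsun7-/- mice (SD, n = 3 each), with overlapping groups. With TPM rescaled without Rmrp, the sums were 117111 ± 19013 and 101366 ± 12805, also overlapping. On that scale wild-type mouse 1 was highest (137142) and Nsun7-/- mouse 3 lowest (86584).

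H2ac1 and H2bc1 are divergent neighbours, with 280 bases between their starts. Their shared promoter is printed because these genes encode the testis H2A and H2B and had similar fold changes. That likeness was not particular to the pair: H2ax, on chromosome 9, had a log2 fold change of -0.49, while H1f1, on chromosome 13, had -0.05. The 250 bases before the H2ac1 start follow, from RefSeq (GRCm38.p6, chr13:23934187-23934436, plus strand, 5′ to 3′), with matches on either strand in capitals to TATAAA (the TATA box), to CCAAT (the CCAAT box) and to ATTTGCAT (the octamer).
H2ac1 upstream: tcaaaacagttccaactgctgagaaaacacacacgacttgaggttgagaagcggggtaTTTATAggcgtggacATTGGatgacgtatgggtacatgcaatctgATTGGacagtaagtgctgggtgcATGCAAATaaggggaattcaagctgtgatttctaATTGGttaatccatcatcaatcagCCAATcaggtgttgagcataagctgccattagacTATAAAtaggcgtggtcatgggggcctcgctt
TATAAA is found once on the plus strand, at position -32 from the H2ac1 start, and once on the minus strand toward H2bc1. CCAAT is found 4 times and ATTTGCAT once, at position -124. Over the window from 250 bases before to 50 after the start, TATAAA was in 15.7%, CCAAT in 41.1% and ATTTGCAT in 1.97% of 27025 promoters. In the H2B cluster 7 of 14 promoters held TATAAA, 14 held CCAAT and 7 held ATTTGCAT, and in the H2A cluster 11, 17 and 6 of 17 did. None of 11 H4 or 10 H3 cluster promoters held ATTTGCAT, and CCAAT was in 3 of 11 for H4 against 10 of 10 for H3. A match describes these letters only. The H2bc1 to H2ac1 ratio of TPM was 10.28 ± 0.31 over the wild-type mice and 10.003 ± 0.480 over the Nsun7-/- mice (SD, n = 3 each), a gap within the spread of the mice. Of their 31-base words, 55.9% for H2bc1 and 71.7% for H2ac1 are found in no other annotated gene.

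Between genotypes no histone gene passed the test: 0 of 89 tested members had an adjusted p under 0.05 in edgeR's quasi-likelihood test with Benjamini-Hochberg adjustment over all genes, where 119 of 21002 genes (0.567%) did, 0.233% higher and 0.333% lower. Of the 13 untested members, 11 did not reach the low-count filter and H2ab2 and H3c14 had no counts. At an unadjusted p under 0.05 there were 18 of the 89 histone genes, against 8.39% of all genes tested. Lower in Nsun7-/- at that p were 16 of the 89, against 3.92% of all genes tested. Higher were 2 of the 89, against 4.48%. DESeq2 called 2 histone genes, H4c18 and H4c9, where it called 0.828% of all genes. In edgeR, H4c18 was called with upper quartile scaling (0.567% of all genes called), with no low-count filter (0.592%), with a filter on mean CPM (0.614%) and without Nsun7-/- mouse 1 (0.77%), and H4c9 without wild-type mouse 2 (0.364%). H4c18 was also called without both wild-type mouse 1 and Nsun7-/- mouse 3, where 91 of 21041 genes were called, a setting chosen after seeing the data. No histone gene was called with effective length offsets (0.333%). With the mouse number as a block, 3 were called (H2bc18, H3c11 and H3c7) beside 1.58% of all genes, and with block and offsets 1 was (H3c7) beside 0.909%.

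Although none was called, 83 of the 89 had a log2 fold change below 0, against 47.5% of all genes tested. The median was -0.29 in the 56 tested cluster genes (52 below 0) and -0.22 in the 33 tested variants (31 below 0), beside 0.01 over all genes. By class the median was -0.19 for the H2A cluster, -0.34 for H2B, -0.32 for H3, -0.34 for H4, -0.05 for H1f1 to H1f5, and -0.24 for the H2A variants. The 44 tested genes with a stem-loop in their model had a median of -0.29 and the 43 without one -0.26. The 43 include genes whose models hold coding sequence only, such as H2ac1 and H2bc1. These medians therefore do not compare mRNAs that have a stem-loop with mRNAs that lack one.

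**Figure D2:**
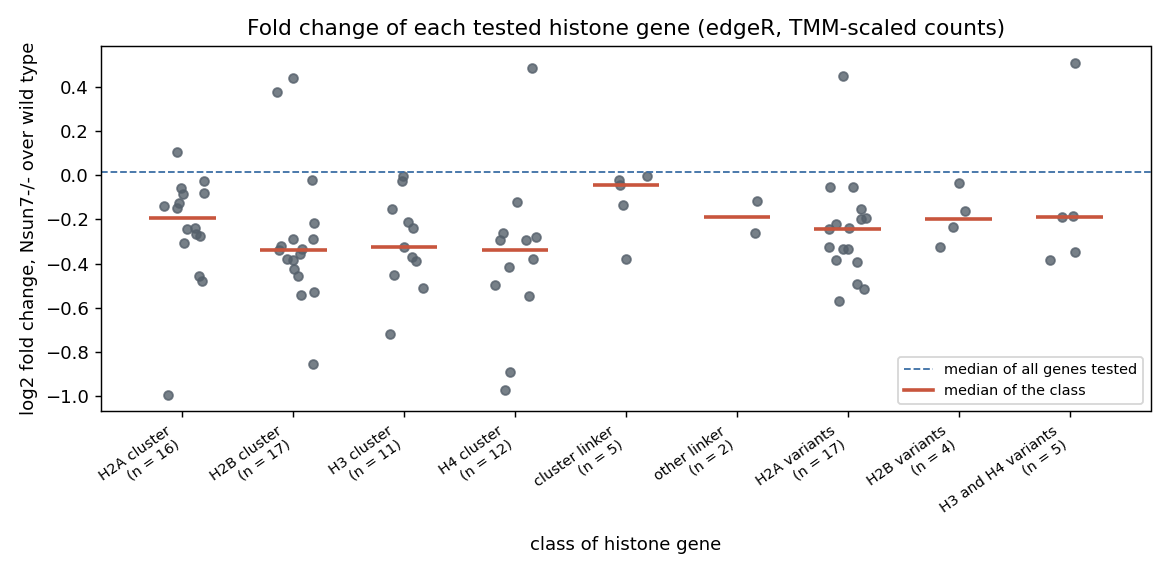
Log2 fold change of each tested histone gene (1 point a gene, Nsun7-/- over wild type, edgeR) by class, with the class median in red and the median of all genes as a dashed line at 0.01. Most points lie below the dashed line in every class, and the lowest are H2ac19, H4c9, H4c18 and H2bc9.

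The shift was not shared by all mice of a group. Centred on each gene's mean over the 6 libraries, the median log2 CPM of the cluster genes was 0.55, 0.13 and -0.18 in wild-type mice 1 to 3 and 0.08, 0.01 and -0.55 in Nsun7-/- mice 1 to 3. Wild-type mouse 1 was high and Nsun7-/- mouse 3 low, while the other 4 libraries lay between -0.18 and 0.13 with the groups mixed. Without wild-type mouse 1 the cluster median was -0.10 (37 of 56 below 0), without Nsun7-/- mouse 3 it was -0.12, and without both it was 0.08 (19 of 56 below 0). The variants went from -0.22 to -0.00 without both.

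Wild-type mouse 1 also had the smallest difference between transcript length and effective length, 154.21 bases against 167.73 to 178.5 in the other 5 libraries, a term that rises with fragment length. With offsets for effective length, the cluster median was -0.26 with all 6 mice. Marker lists of both germ and somatic cells stood high or low in these mice. For spermatogonia (12 markers) the centred median was 0.12 in wild-type mouse 1 and -0.11 in Nsun7-/- mouse 3, for leptotene and zygotene cells (12) 0.22 and -0.13, and for peritubular myoid cells (8) 0.19 and -0.31, in each case the highest and the lowest of the 6 libraries. Other lists did not follow that order. Pachytene markers had 0.10 and -0.14 but were highest in Nsun7-/- mouse 1 (0.12), and elongating spermatid markers had 0.07 and -0.23 but were highest in wild-type mouse 3 (0.31). Round spermatid markers had -0.01 and 0.07, Sertoli markers 0.04 and -0.31, Leydig markers -0.23 and -0.14, macrophage and leukocyte markers -0.14 and -0.30, erythroid markers -0.13 and 0.31, and endothelial markers -0.44 and 0.12. Summed CPM of the leptotene and zygotene markers ran from 497 to 611 in wild type and 410.2 to 544 in Nsun7-/-, of the spermatogonial markers from 685 to 831 and 679.9 to 846, and of the myoid markers from 753 to 803 and 574 to 726. Their part in the result was not tested, and in whole testis fewer cells of a type and less RNA per cell cannot be told apart.

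**Figure D3:**
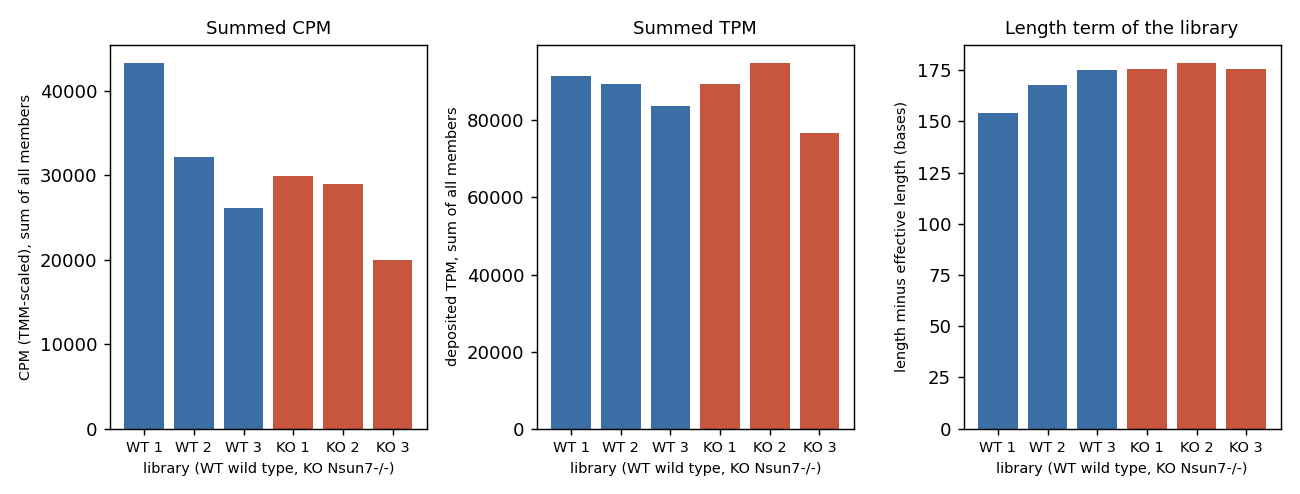
For each of 6 libraries (WT wild type, KO Nsun7-/-), the summed CPM of the 102 genes, their summed TPM, and the library's median transcript length minus effective length in bases. Summed CPM runs from 43340 in wild-type mouse 1 to 19975 in Nsun7-/- mouse 3, whereas summed TPM lies between 76754 and 94929 with no order by genotype. TPM is shared with Rmrp, whose share differs between libraries. Rescaled without Rmrp (not drawn), summed TPM runs from 137142 in wild-type mouse 1 to 86584 in Nsun7-/- mouse 3, again the highest and the lowest.

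**Figure D4:**
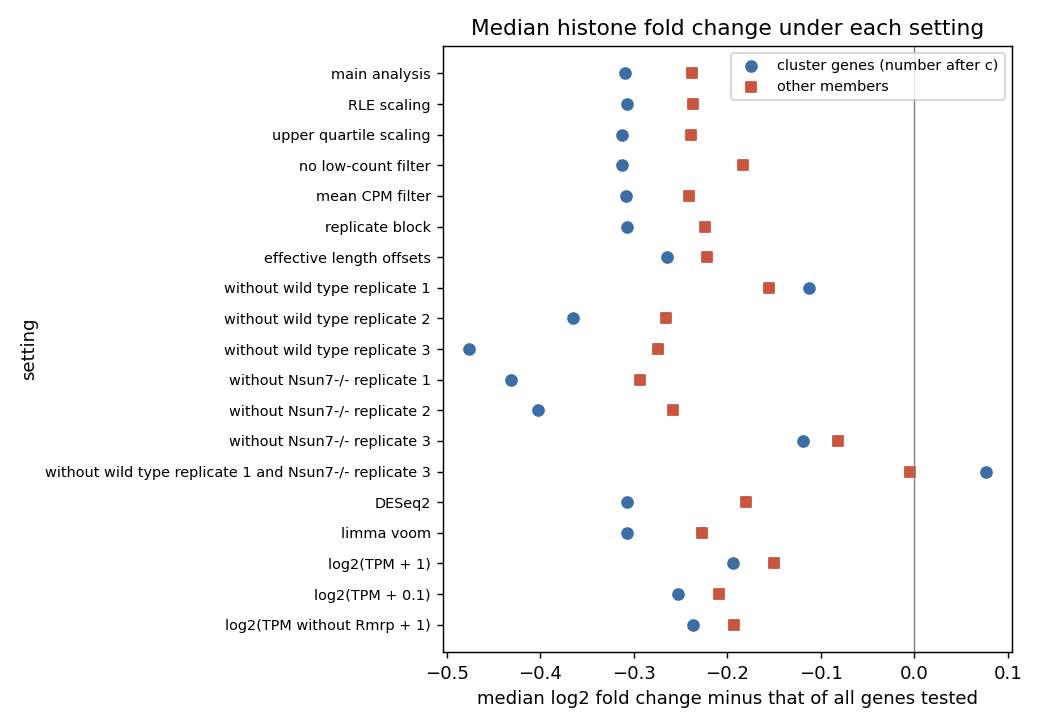
Median log2 fold change of cluster genes (blue) and of the other members (red), minus the median of all genes, under each setting. The medians lie below 0 in every setting shown except for the cluster genes without wild-type mouse 1 and Nsun7-/- mouse 3, where the median is 0.08.

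Among the H4 genes, H4c18 came nearest to a call. It was at 609, 739 and 909 CPM in wild type and 459, 457 and 299.6 CPM in Nsun7-/-. The groups did not overlap, as for 9 members on the lower side against 6.95% of all genes. The log2 fold change was -0.89 ± 0.18 (SE), with an adjusted p of 0.0526 in edgeR's quasi-likelihood test, 0.00031 in DESeq2 and 0.162 in edgeR with effective length offsets, and from 0.00031 to 0.40 over all 20 alternatives. On TPM the groups overlapped, at 1918, 3086 and 4388 against 2100.3, 2294 and 1756.

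H4c18 cannot be read apart from its near-copy H4c17, whose 402-base model matches it at 401 of 402 bases; 91.7% of the 31-base words of H4c17 are in H4c18. H4c17 was at 909, 406 and 0 CPM in wild type and 719, 683 and 441 CPM in Nsun7-/-, so wild-type mouse 3, highest for H4c18, was listed at 0 for H4c17. Their sum was 1519, 1145 and 909 CPM against 1178, 1140.1 and 741 CPM, a log2 ratio of -0.22 with overlapping groups. On TPM the sum had a log2 ratio of 0.19.

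**Figure D5:**
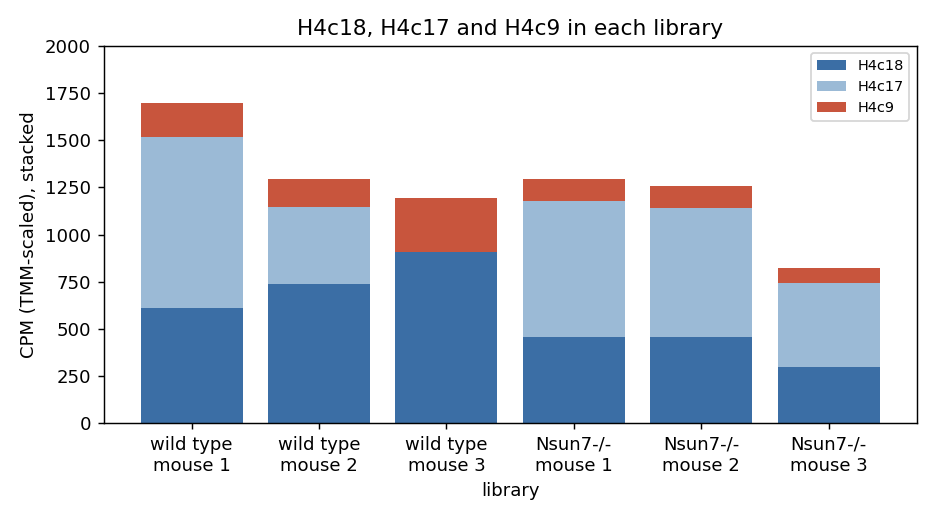
Stacked TMM-scaled CPM of H4c18, H4c17 and H4c9 in each of the 6 libraries. In wild-type mouse 3 H4c17 is at 0 and H4c18 at its highest, and the total runs from 1699 in wild-type mouse 1 to 820.5 in Nsun7-/- mouse 3.

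H4c9, another H4 cluster gene, shares 26.1% of its 31-base words with H4c18 and was at 181, 148 and 285 CPM in wild type and 115, 117 and 79.9 CPM in Nsun7-/-. The groups did not overlap, with wild-type mouse 3 again highest. Its log2 fold change of -0.97 ± 0.25 (SE) had an adjusted p of 0.257 in edgeR's quasi-likelihood test and 0.00094 in DESeq2 (0.00094 to 0.896 over its 20 alternatives). Of the 31-base words of H4c9, 64.4% are found in no other annotated gene, and its model matches H4c18 at 358 of 430 aligned bases. With H4c17 and H4c18 added, the log2 ratio was -0.31 and the groups overlapped. That sum is made up mostly of H4c17 and H4c18, so it does not show how H4c9 itself differed. H4c8, at 2120 to 1067 CPM in wild type and 1236 to 776 CPM in Nsun7-/-, had a log2 fold change of -0.55, and H4c3, at 3109 to 1288 and 1785 to 1055 CPM, one of -0.50.

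In the H2B cluster, H2bc1 was at 8292, 6254 and 5025 CPM in wild type and 5108, 4940.2 and 3536 CPM in Nsun7-/-. The groups overlapped through wild-type mouse 3 and Nsun7-/- mouse 1. The log2 fold change was -0.53 ± 0.19 (SE), with an adjusted p of 0.476 in edgeR's quasi-likelihood test. H2bc9 was rare but did not overlap on either scale: 3.67, 2.60 and 2.23 CPM against 1.86, 1.57 and 1.26, and 2.11, 1.90 and 1.86 TPM against 1.45, 1.35 and 1.27. Its log2 fold change of -0.86 ± 0.26 (SE) had an adjusted p of 0.293 in the same edgeR test. H2bc21, an H2B gene on chromosome 3, was the one member higher without overlap on CPM, where 7.38% of all genes were: 17.2, 17.1 and 19.5 against 22.8, 20.4 and 26.7, a log2 fold change of 0.38 ± 0.14 (SE) and an adjusted p of 0.480 in edgeR. H2bc14, second to H2bc1 by mean TPM within the H2B cluster, stood at -0.33.

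In the H2A cluster, H2ac1 was at 813, 614 and 519.9 CPM against 498, 529 and 367 CPM. Its log2 fold change of -0.48 ± 0.18 (SE), near that of its neighbour H2bc1, had an adjusted p of 0.481 in edgeR's quasi-likelihood test. The groups overlapped only through wild-type mouse 3 and Nsun7-/- mouse 2. H2ac18 and H2ac19 match at 528 of 528 aligned bases, and neither model has a 31-base word of its own. H2ac19 at -0.99 ± 0.63 (SE) and H2ac18 at -0.27 ± 0.16 (SE) are therefore uncertain, and their sum had a CPM log2 ratio of -0.37 and a TPM log2 ratio of -0.04, both with overlapping groups. All the words of H2ac18 are also in Gm20633 and all those of H2ac19 in Gm20632. The sum therefore does not remove a division of reads with genes outside the pair. H2ac20, of second smallest p in this class, was at -0.46. Across the 100 members with a model the median share of own 31-base words was 42.6%, 26 had under 10% and 13 had none.

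In the H3 cluster, H3c7 was at 365, 255 and 189 CPM in wild type and 193, 176 and 122 CPM in Nsun7-/-, overlapping only by wild-type mouse 3. On TPM it did not overlap, at 289, 257 and 217 against 209.7, 209.3 and 169.7, one of 3 members lower without overlap on that scale beside 1.1% of all genes. The log2 fold change was -0.72 ± 0.25 (SE), with an adjusted p of 0.502 in edgeR's quasi-likelihood test. H3c11 was at 39.8, 32.6 and 34.1 CPM against 26.8, 28.61 and 19.3 CPM with no overlap, a log2 fold change of -0.51 ± 0.15 (SE) and an adjusted p of 0.293 in edgeR. H3c1 and H3c10, the cluster H3 genes of highest level, stood at -0.21 and -0.45.

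The linker genes H1f1 to H1f5 lay nearest to 0. H1f1, the most abundant linker histone here, was at 1778, 1655 and 1306 CPM in wild type and 1634, 1753 and 1202 CPM in Nsun7-/-, overlapping throughout, with a log2 fold change of -0.05 ± 0.17 (SE). On TPM it was 2648, 3188 and 2877 against 3407, 3996 and 3206, higher without overlap, as were 9 members and 19% of all genes. H1f2 stood at -0.02, H1f4 at -0.13 and H1f5 at -0.38. Outside the clusters, H1f0, the linker of resting cells, was at 11.7 to 13.2 TPM in wild type and 11.9 to 17.8 TPM in Nsun7-/- (log2 fold change -0.12 on counts), and H1f10 was at -0.26. H1f8, the oocyte linker histone, reached at most 0.282 TPM in any library.

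Of the H2A variants, H2ax was at 5109, 3666 and 3054 CPM in wild type and 3272, 3062 and 2064 CPM in Nsun7-/-, overlapping through wild-type mouse 3, with a log2 fold change of -0.49 ± 0.21 (SE) and an adjusted p of 0.567 in edgeR's quasi-likelihood test. H2az1, which encodes the H2A.Z found at promoters, was at 711, 699 and 752 TPM against 826, 709 and 727 TPM and had a count log2 fold change of -0.24. H2az2 had 36.1, 27.9 and 23.2 CPM against 22.8, 22.6 and 20.9 CPM with no overlap, and -0.39 ± 0.16 (SE). H2aw was at -0.32.

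The spermatid H2A variants were low. H2al2a, whose product pairs with TH2B during protamine packaging, was at 84.0, 134 and 179.9 TPM in wild type and 137, 183 and 149 TPM in Nsun7-/-, overlapping, with a count log2 fold change of -0.05. The 14 H2al1 genes summed to 117, 198 and 167 TPM against 191, 198 and 159.9 TPM; H2al1c, H2al1d, H2al1f, H2al1h and H2al1i had the same counts in every library. H2ab3, a short H2A.B gene on the X chromosome, was at 2.76, 2.29 and 2.97 CPM against 2.14, 1.61 and 1.65 CPM with no overlap, and -0.57 ± 0.23 (SE), adjusted p 0.532 in edgeR. H2ab1 stood at -0.33 and H2ap at -0.34, while H2ab2 had no count in any library. Of the H2B variants, H2bl1 was at 12.5, 10.8 and 10.5 CPM against 7.84, 9.07 and 9.96 CPM with no overlap, and -0.33 ± 0.15 (SE). H2bu2 stood at -0.24 and the pseudogene H2bu1-ps at -0.16.

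The replacement H3.3 genes H3f3a and H3f3b held a steady ratio. H3f3b was at 714, 829 and 809 TPM in wild type and 868, 800.0 and 831 TPM in Nsun7-/-, and H3f3a at 426, 498 and 448 against 517, 462 and 484 TPM. Their TPM ratio, H3f3b over H3f3a, was 1.72 ± 0.08 over the wild-type mice and 1.71 ± 0.03 over the Nsun7-/- mice (SD, n = 3 each), and their count log2 fold changes were -0.18 and -0.19. H3f4, at 4664, 3216 and 2629.6 CPM against 3063, 3165 and 2029 CPM, overlapped and stood at -0.35 ± 0.22 (SE), and H4f16 at -0.38. The antisense row H3f3aos was at 6.75, 6.63 and 9.75 CPM against 9.18, 9.41 and 14.3 CPM, 0.51 ± 0.21 (SE), adjusted p 0.535 in edgeR. Counting is not stated to use strand, and H3f3a shares 4.52% of the 31-base words of the 2905-base H3f3aos transcript and 30.7% of those of the 229-base one. Reads from these shared stretches cannot be told apart.

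At the transcript level none of 107 tested histone transcripts was called by edgeR's quasi-likelihood test (0.0272% of 58773 were), 7 had an unadjusted p under 0.05 (4.76% of all transcripts did) and the lowest adjusted p in edgeR was 0.756. Of the 11 genes with several transcripts, H3f3b was led by an 874-base transcript holding 65.5% to 68.3% of its TPM in all 6 libraries.

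Among genes that make and handle histones no call was made by edgeR's quasi-likelihood test. None of 25 tested replication genes was called (median log2 fold change -0.09, 16 below 0), with Mcm5, a subunit of the replicative helicase, at -0.31 and Cdt1, which loads it, at -0.33. Among 23 genes listed for histone mRNA transcription and 3′ end processing none was called (median 0.00), with Mbnl1 at 0.35 and the cap-binding Ncbp1 at 0.28. Mbnl1 is a splicing regulator rather than a factor of that processing. It was the list's 1 gene with an unadjusted p under 0.05 in edgeR's quasi-likelihood test. None of 33 tested histone chaperones was called (median 0.05), with Asf1b at -0.24 and Rbbp7 at 0.25, and none of 28 genes of histone exchange in spermatids (median 0.05), with the transition protein genes Tnp2 at -0.39 and Tnp1 at -0.79. Of 7 histone genes outside the symbol rule, 6 were tested and none was called (median -0.14), with the spermatocyte linker gene H1f6 at -0.44 and the centromeric H3 gene Cenpa at -0.31. At an unadjusted p under 0.05 these lists held 1 of 25, 1 of 23, 0 of 33, 2 of 28 and 1 of 6 genes, beside 8.39% of all genes.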

How the data were processed

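The authors deposited estimated counts and TPM per gene symbol, and per library the estimated count, TPM, length and effective length of 126126 transcripts, per the file headers. Per the submitters' processing notes, kallisto 0.50.1 and mm39 were used; no source used here gives the annotation release, the strand setting or the rule that sums transcripts to genes. Kallisto divides reads that fit several transcripts by estimate, so values of near-identical histone copies depend on that division.

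The members, lists and tests were chosen with earlier results of these data known. Estimated counts were rounded and fitted whole in edgeR 4.0.16 (R 4.3.3) with TMM scaling, filterByExpr (minimum count 10, minimum total 15) and a robust quasi-likelihood test on genotype over 6 mice; adjusted p-values (Benjamini-Hochberg, threshold 0.05) cover 21002 genes or 58773 transcripts. CPM are TMM-scaled and SE are from that fit. DESeq2 1.42.0 and limma 3.58.1 served as alternatives, with log2(TPM + 1) and log2(TPM + 0.1). Tables and sums used Python 3.11.15. Named genes are, in each class, the 2 of highest mean TPM and the 2 of smallest p, with textbook members and the 2 of smallest p in each list; H2bc21, H2ac24, H4c12, H4c17, H2ac19, H2bc18, H1f8 and the H2al1 genes were added after their values were seen. Depth was 23480448 to 28558865 counts, and the biological coefficient of variation was 14.9%. On simulated counts for this comparison (20670 genes, 50 changed at each size) the test recovered 28% at a log2 change of 0.585, 78% at 1, 94% at 2 and 96% at 3, and 1.33% of 150 calls were false. These percentages are for genes in general. Recovery among the histone genes, whose near-identical copies share reads, was not tested. Of the members, 100 were joined to transcripts and 99 to RefSeq.

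The marker lists had these median log2 fold changes: leptotene and zygotene -0.13, pachytene -0.06, round spermatid 0.02, elongating spermatid -0.19, Sertoli -0.07, spermatogonia -0.04, peritubular myoid -0.26, macrophage and leukocyte 0.24, erythroid 0.30 and endothelial 0.11, with no call; Leydig markers stood at 0.58 with 2 of 10 called higher in edgeR (Hsd3b1 and Hsd17b3).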

Additional observations from a re-analysis of the deposited data

How the results depend on the processing

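Against 119 genes called in all, 180 were called with no low-count filter, 203 by DESeq2, 70 with effective length offsets, 61 on log2(TPM + 1), 68 on log2(TPM + 0.1) and 39 on TPM rescaled without Rmrp, and leaving out libraries gave 67 to 166, or 44 without wild-type mouse 1 and with offsets. Histone cluster genes called were 1 (H4c18) under upper quartile scaling, no filter and a mean CPM filter, 2 in DESeq2, and 0 to 1 with libraries left out: H4c9 without wild-type mouse 2, H4c18 without Nsun7-/- mouse 1 and without wild-type mouse 1 with Nsun7-/- mouse 3. Without wild-type mouse 1 and Nsun7-/- mouse 3, 91 of 21041 genes were called in all. No variant gene was called under any setting. Same-numbered mice had correlations of 0.18, -0.0048 and 0.20 in their deviations, so the numbers were not taken to pair the mice; with a replicate block 331 genes, 3 cluster genes (H2bc18, H3c11, H3c7) and 1 list gene were called, and with block and effective length offsets 191, 1 (H3c7) and 1. With libraries left out the cluster median ran from -0.46 to 0.080 and the variant median from -0.29 to -0.00095, both highest without wild-type mouse 1 and Nsun7-/- mouse 3. The summed histone log2 ratio, -0.02 on TPM, was -0.37 on CPM and -0.21 without Rmrp, and ran from -0.08 to 0.06 with a mouse left out.

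Of 36 member genes followed, 21 kept their direction under every setting, with the TPM scales taken relative to the median of all genes. Without that centring, 23 of 56 cluster genes and 11 of 33 variants were below 0 on log2(TPM + 1). With libraries left out the fold change ran from -0.20 to 0.0085 for H1f0, -0.17 to 0.19 for H1f1, -0.15 to 0.23 for H1f2, -0.79 to 0.021 for H2ab1, -0.20 to 0.075 for H2al2a, -0.48 to 0.038 for H2aw, -0.51 to 0.12 for H2bc14, -0.28 to 0.098 for H2bu1-ps, -0.43 to 0.24 for H2bu2, -0.39 to 0.18 for H3c1, -0.33 to 0.0021 for H3f3a, 0.18 to 0.72 for H3f3aos, -0.52 to 0.092 for H3f4, -0.75 to 0.099 for H4c3 and -0.61 to 0.032 for H4f16. Relative to the median of all genes, log2(TPM + 1) gave 0.042 for H1f1, 0.052 for H1f2 and 0.053 for H2al2a, and TPM without Rmrp gave 0.0091 for H1f2 and 0.012 for H2al2a. Without wild-type mouse 1 and with offsets, the values were 0.020 for H1f0, 0.059 for H1f1, 0.079 for H1f2, 0.057 for H2bu1-ps, 0.085 for H2bu2, 0.037 for H3c1 and -0.092 for H3f3aos. The cause was not tested. Alternatives that combine a left-out mouse with another change, or the block with offsets, were chosen after seeing the data. Among the 13 members below the filter, H3c14, H2al1c, H2al1d, H2al1f, H2al1h, H2al1i, H2al2b and H2al2c have no 31-base word of their own; whether depth or the division of reads limits these members was not tested.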
